A study of Octopus bimaculoides with 95 samples.

Results

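Betsin is 1 of 17545 genes in the expression table of a sequencing plate of the California octopus Octopus bimaculoides, and it was taken as the row of that name in both expression tables of the series. The series holds 95 libraries of RNA sequencing, and the labels used here name each by its tissue or cell and give no age, genotype or treatment. The plate table has 85 libraries of 46 tissues, of which 51 libraries of 21 tissues are neural and 34 libraries of 25 tissues are not. The second table has 10 libraries, namely 5 of whole nervous tissue and 5 of single neurons.

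The sources used here give Betsin a name and no function. It stands among 18 plate entries that carry a name of their own in place of a locus number. No nucleotide or protein sequence of Betsin was in the material used here, so the gene is described by its levels alone.

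The octopus nervous system is spread over a central brain, large optic lobes behind the eyes, and nerve cords and ganglia outside the brain. The stellate ganglion drives the muscle of the mantle, the arm nerve cord runs the length of each arm, the buccal lobes and ganglia serve the mouth and radula, and the vertical lobe is known for its part in memory. In the optic lobe a layered outer zone, the plexiform periphery, receives the fibres of the retina and passes their signals to the inner medulla. Branchial hearts pump blood through the gills and the systemic heart pumps it through the rest of the body.

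The comparisons used 6 plate libraries of peripheral nervous tissue (3 of the stellate ganglion and 3 of the arm cord proximal to the brachial crown), 6 of the optic lobe (3 of the deep medulla and 3 of the plexiform periphery) and 33 of 11 central tissues. The central tissues, each with 3 libraries, were 5 sampled regions of the vertical lobe, the subvertical, dorsal basal, inferior frontal, superior frontal and superior buccal lobes, and what remained of the basal and subfrontal lobes. In the tests across all genes these 5 regions together weighed as 1 tissue. The comparisons left out the subesophageal lobes, which had 1 library each. From outside the nervous system they used 3 libraries each of the branchial heart auricle, the branchial heart ventricle and the retina, and the other non-neural tissues with 1 or 2 libraries each. Whether the libraries of a tissue came from separate animals is not said in the labels, and the p-values therefore reflect the spread between libraries alone. In the tests across all genes each fit shared 1 estimate of the spread per gene. In most comparisons that estimate also drew on tissues outside the comparison.

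Levels are given as TPM, a share of all transcripts corrected for their length, after the spike-in RNAs had been removed and each library brought back to a total of 1000000. Because the TPM values of most genes, Betsin included, were whole multiples of the worth of 1 read in their library, the reads behind Betsin could be recovered. The recovered reads per plate library ran from 41333 to 14327020 with a median of 1764516, and the spike-ins took between 1.27% and 94.1% of the deposited TPM, with a median of 40.3%. A level worth 3 Betsin reads, the limit that a count of 0 allows, lay between 0.419 and 124 TPM with a median of 2.87 TPM. Such limits, and the intervals on reads given below, cover counting error only.

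Some libraries stood apart from their labels. Both LOC106868274 and LOC106876803, the genes chosen from an earlier analysis of these data for their abundance in neural tissue, were at their lowest among the 51 neural libraries in the library labelled stellate ganglion 1, at 8.18 TPM and 4.06 TPM against neural medians of 3261 TPM and 565 TPM. In the library labelled chromatophores 1 they stood at 8780 TPM and 2139 TPM, the highest of the 34 non-neural libraries. An earlier analysis set 5 plate libraries apart, and each comparison was also made without them. The others were the right mediolateral vertical lobe 1, the optic gland and the retina 3, all with Betsin at 0.

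Betsin was a gene of few libraries and of moderate level. It was above 0 in 35 of the 85 plate libraries, with at least 3 reads in 26 of them and with 1 or 2 reads in 9, and 17 libraries reached 10 TPM. In all 2644 Betsin reads were recovered of 194355342. The highest level, 159 TPM from 412 reads, was that of the 1 library of the inferior buccal ganglion, a ganglion of the mouth region, and it placed Betsin among the top 3.197% of genes there.

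**Figure D1:**
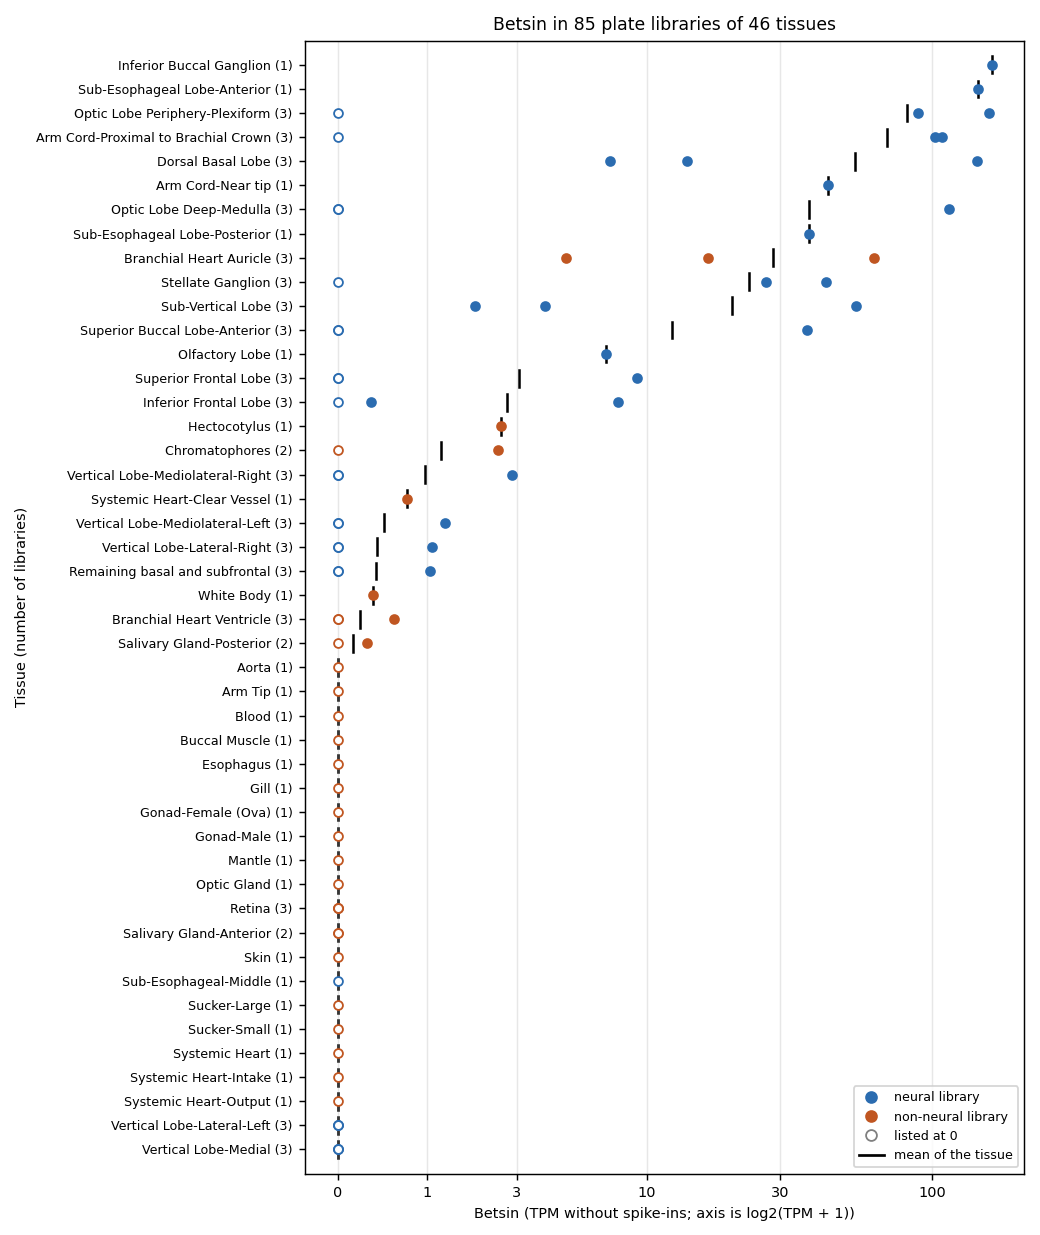
Betsin in each of the 85 plate libraries, in TPM without spike-ins on a log2(TPM + 1) axis, by tissue in the order of mean TPM with the number of libraries in brackets. Points are libraries (open at 0) and bars are tissue means. The highest 8 tissues by mean TPM were all neural, while 21 tissues had Betsin at 0 in every library.

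The order of the tissue means was led by neural tissue outside the vertical lobe. The inferior buccal ganglion at 159 TPM and the anterior subesophageal lobe at 143 TPM, with 1 library each, came first. They were followed by the plexiform periphery with 82.0 ± 78.4 TPM (SD, n = 3), the proximal arm cord with 70.0 ± 60.7 TPM (n = 3) and the dorsal basal lobe, a higher motor centre of the brain, with 54.6 ± 76.2 TPM (n = 3).

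Then came the arm cord near the tip at 44.1 TPM from 1 library, the medulla at 37.9 ± 65.7 TPM (n = 3) and the posterior subesophageal lobe at 37.7 TPM from 1 library. The branchial heart auricle, at 28.3 ± 30.9 TPM (n = 3), was the highest non-neural tissue, next to the stellate ganglion at 23.3 ± 21.8 TPM (n = 3). Without the highest library of each, the means were 10.8 TPM in the auricle and 13.4 TPM in the stellate ganglion, the reverse order. The subvertical lobe had 20.3 ± 30.02 TPM (n = 3), the superior buccal lobe 12.4 ± 21.4 TPM (n = 3) and the 1 olfactory lobe library 6.99 TPM. Among the tissues with 2 or more libraries the ranges of every neighbouring pair in this order overlapped, and no neighbouring means differed by more than the larger SD of the pair. The order also moved with the scale. On the deposited scale, spike-ins included, the auricle was 8th with 22.7 TPM, above the arm cord near the tip with 20.6 TPM, and the stellate ganglion had 4.72 TPM. By mean log2(TPM + 1) the arm cord near the tip was 3rd, the plexiform periphery 6th and the auricle 8th.

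The spread inside many tissues was as large as their differences from neighbouring tissues in this order, and a single library often set the mean. In the dorsal basal lobe the 3 libraries had 143, 14.1 and 7.24 TPM, from 477, 29 and 5 reads. Without the highest library the mean was 10.7 TPM. In the subvertical lobe, which lies under the vertical lobe, they had 4.01, 54.9 and 1.89 TPM, and without the highest the mean was 2.95 TPM.

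In the other brain lobes most libraries had Betsin at 0. In the superior buccal lobe 2 libraries were at 0 and the third had 37.1 TPM from 4 reads. The superior frontal lobe had 0, 9.24 and 0 TPM, the inferior frontal lobe 0, 0.296 and 7.83 TPM, and the remaining basal and subfrontal lobes 1.04, 0 and 0 TPM. Except for the 7.83 TPM, which came from 10 reads, these values rested on 1, 2 or 4 reads. Of the 7 libraries at 0, superior frontal 1 had a limit of 2.18 TPM and the others had limits between 10.6 and 53.0 TPM. Their counts of 0 allowed levels up to those limits.

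In the vertical lobe few Betsin reads were found. Over its 15 plate libraries 11 Betsin reads were recovered of 21225356, or 0.518 per 1000000 reads (95% exact Poisson interval 0.259 to 0.927). The 3 libraries above 0 were right mediolateral 2 at 2.87 TPM, left mediolateral 3 at 1.30 TPM and right lateral 2 at 1.08 TPM, from 3, 4 and 4 reads. The 12 libraries at 0 could have held up to between 2.46 and 124 TPM by their limits.

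Detection went with depth within neural tissue. Of the 26 neural libraries with at least 1000000 recovered reads 22 had Betsin above 0, with a median of 7.53 TPM, while of the 25 shallower ones 4 did. The median limit was 2.22 TPM in the deeper and 18.5 TPM in the shallower libraries, and the median share of spike-ins was 26.3% and 75.1%. The split by depth was made after the data had been examined.

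The 4 deeper neural libraries at 0 were the one labelled stellate ganglion 1 (6547629 reads, limit 0.929 TPM), superior frontal 1 (2449006 reads, 2.18 TPM), medial vertical lobe 1 (1382164 reads, 3.74 TPM) and left mediolateral vertical lobe 2 (2024742 reads, 2.46 TPM). In the middle subesophageal lobe, the 1 subesophageal tissue with Betsin at 0, the library had 114063 reads and a limit of 41.8 TPM, above the 37.7 TPM measured in the posterior lobe. The count of 0 there therefore still allowed a level like that of the posterior lobe.

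**Figure D2:**
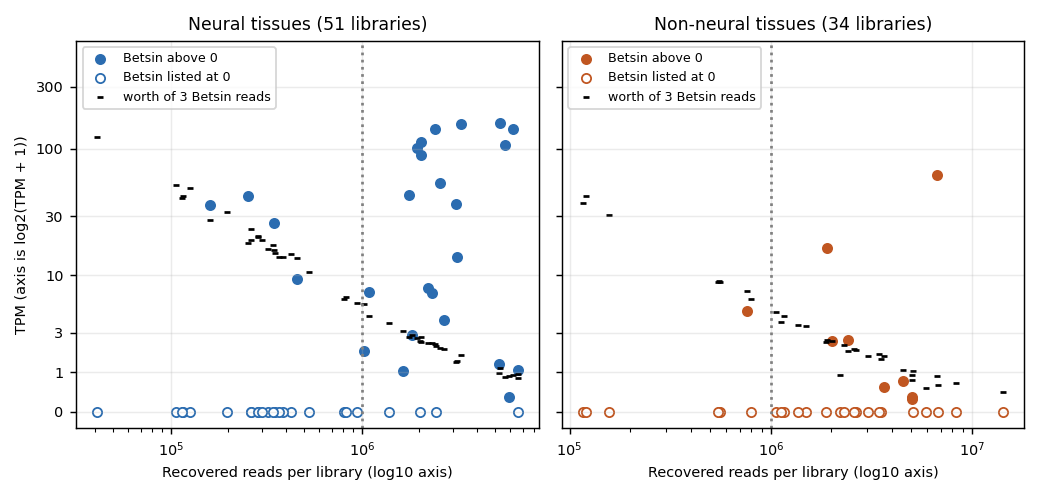
Betsin level against recovered reads per plate library on a log10 axis, for 51 neural (left) and 34 non-neural libraries (right), with the level in TPM on a log2(TPM + 1) axis. Filled points are above 0, dashes mark the worth of 3 Betsin reads and the dotted line stands at 1000000 reads, to the right of which 22 of 26 neural libraries had Betsin above 0.

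Peripheral nervous tissue held Betsin in 4 of 6 plate libraries. In the proximal arm cord, which carries the sensory and motor circuits of the arm, the libraries had 102, 0 and 108 TPM, from 115, 0 and 387 reads. The library at 0 had 300759 reads and a limit of 19.2 TPM, below both other values. In the stellate ganglion the libraries had 0, 26.7 and 43.1 TPM, from 0, 5 and 7 reads.

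The 2 stellate libraries above 0 were shallow, with 345550 and 253274 reads, and the one at 0 was the library with the lowest levels of both neural genes named above. The arm cord near the tip, a single library, had 44.1 TPM from 49 reads. The hectocotylus, the modified arm of the male, is a non-neural tissue in this grouping though arms hold nerve cord, and its 1 library had 2.56 TPM from 4 reads, with 93.4 TPM of LOC106868274. The whole arm tip was at 0 with a limit of 8.95 TPM.

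Against the central lobes Betsin did not pass the test across all genes. The mean was 46.7 ± 48.2 TPM (SD, n = 6) in peripheral tissue and 8.65 ± 26.6 TPM (n = 33, 14 above 0) in the central lobes. The subesophageal lobes, not among these, had 143 TPM in the anterior, 37.7 TPM in the posterior and 0 in the middle lobe, from 1 library each. With tissues weighted equally, but the vertical lobe regions together as 1 tissue, the log2(TPM + 1) difference was 2.15 ± 1.00 (SE, 95% confidence interval 0.14 to 4.17). It had an adjusted p of 0.275 and an unadjusted p of 0.0370 in limma. A gene passed where the adjusted p was under 0.05 and the log2 difference at least 1 in size, as for 3.85% of 13341 genes here.

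A test of Betsin alone over the same libraries gave another answer. With libraries weighted equally the difference was 2.71 and the two-sided exact permutation p was 0.00843, or 0.0337 adjusted over the 4 such tests made. That test took libraries as units whatever their tissue. Of the 33 central libraries 15 were of the vertical lobe, with a mean of 0.350 TPM, so this 1 low lobe weighed more than in limma. Among libraries whose names start with a 4-digit number, the most common naming style, the difference was 0.87 (adjusted p 0.991 in limma). Without the libraries set apart it was 3.00 (adjusted p 0.121 in limma). Among libraries with at least 1000000 reads, a choice made after the data had been examined, it was 1.43. The stellate ganglion was then represented by the library labelled stellate ganglion 1 alone. In bulk tissue, fewer cells that make a transcript and less of it per cell cannot be told apart, here and in every comparison below.

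The naming styles in the labels were spread unevenly over the tissues, and their meaning is not given in the sources used here. Of the 33 central libraries 16 carry names starting with ObRNA, with Betsin at most 9.24 TPM, and 6 names starting with ObA, with at most 1.89 TPM. The 9 central libraries with 4-digit names ran from 0 to 143 TPM, with 4 above 0. Of the 12 peripheral and optic libraries 9 have 4-digit names, with 4 above 0 and a median of 0. The part of the naming style in these differences was not tested beyond the values within the 4-digit style.

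Between the 2 peripheral tissues no difference was established. The stellate ganglion minus the arm cord was -1.07 ± 1.78 (SE, 95% confidence interval -4.67 to 2.54) with an adjusted p of 1 in limma, where 0.18% of genes passed. The two-sided exact permutation p was 0.6, and 0.1 is the smallest that 3 against 3 libraries allow. The difference turned to 0.64 without the library labelled stellate ganglion 1, and to 0.04 within the 4-digit style.

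The optic lobe held Betsin at high levels in 3 libraries and at 0 in the other 3. In the plexiform periphery the libraries had 0, 156 and 89.8 TPM, from 0, 276 and 113 reads. In the medulla they had 0, 0 and 114 TPM, from 0, 0 and 125 reads. The 3 libraries above 0 had between 2036942 and 3292240 reads, and the 3 at 0 had between 262099 and 352978 reads.

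The limits of the libraries at 0 were 15.3 TPM in the periphery and 19.5 and 23.6 TPM in the medulla, all below the lowest level of the other 3. These libraries also carried more spike-in, between 75.1% and 85.1% against between 19.8% and 45.5%. The optic lobe library with the most LOC106868274, at 10842 TPM, was medulla 2, where Betsin was at 0. That with the most LOC106876803, at 791 TPM, was medulla 3, where Betsin was at 114 TPM.

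Against the central lobes Betsin in the optic lobe did not pass. The mean was 59.96 ± 69.04 TPM (SD, n = 6) against the same 33 central libraries at 8.65 ± 26.6 TPM. The log2 difference was 1.64 ± 1.00 (SE, 95% confidence interval -0.38 to 3.66), with an adjusted p of 0.803 in limma, where 1.2% of genes passed. The two-sided exact permutation p over libraries was 0.0291, or 0.0582 adjusted over the 4 tests, for a difference of 2.19. It too took libraries as units, with all those of the vertical lobe counted singly.

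This comparison turned with the choice of libraries. Among the libraries with 4-digit names it was -0.71. Among those with at least 1000000 reads, a choice made after the data had been examined, it was 4.94 and passed (adjusted p 0.0345 in limma), with 3 optic libraries on that side. In that depth class the optic libraries ran from 89.8 to 156 TPM, the 10 central libraries outside the vertical lobe from 0 to 143 TPM with a median of 5.62 TPM, and the 5 vertical lobe libraries from 0 to 2.87 TPM.

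Within the optic lobe no difference between its parts was established. The medulla minus the periphery was -2.32 ± 1.78 (SE, 95% confidence interval -5.92 to 1.28), with an adjusted p of 1 in limma, where 0.15% of genes passed. The two-sided exact permutation p was 0.7, and 0.1 is the smallest possible with 3 against 3. Among libraries with at least 1000000 reads the difference was -0.06, with 1 medulla library.

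The retina, the light-sensing tissue that sends its fibres to the optic lobe, had Betsin at 0 in all 3 libraries. These were shallow, with 544771, 560762 and 120175 reads and limits of 8.85, 8.71 and 43.2 TPM. The optic lobe libraries above 0 all lay above these limits. The retina minus the optic lobe was -3.44 ± 1.42 (SE, 95% confidence interval -6.29 to -0.59), with an adjusted p of 0.167 and an unadjusted p of 0.0190 in limma, where 6.3% of 14129 genes passed.

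Without plexiform periphery 1, which was at 0, the difference between retina and optic lobe was -4.59 and passed (adjusted p 0.0294 in limma). The optic gland, an endocrine gland on the optic stalk, was at 0 in its 1 library, which with 5107215 reads had a limit of 1.07 TPM. The olfactory lobe of the same region had 6.99 TPM from 9 reads.

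**Figure D3:**
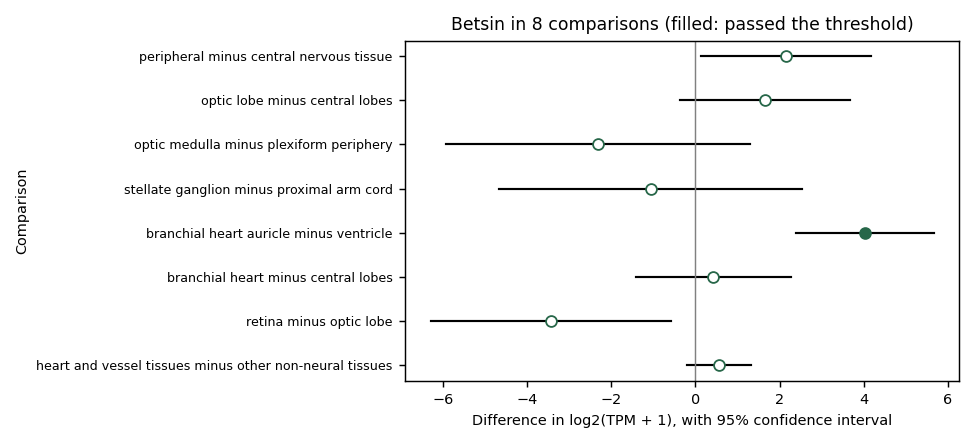
The difference of Betsin in log2(TPM + 1) in 8 comparisons, with 95% confidence intervals from limma. The auricle minus the ventricle of the branchial heart, filled, was the 1 comparison that passed, and the peripheral, optic and branchial heart comparisons share the 33 central libraries.

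In the branchial heart Betsin was higher in the auricle than in the ventricle. The auricle had 16.7, 63.3 and 4.88 TPM, from 20, 216 and 2 reads. The ventricle had 0, 0.549 and 0 TPM, from 0, 1 and 0 reads. All 3 auricle libraries were above all 3 ventricle libraries, though auricle 3, with 761060 reads, lay under its own limit of 7.31 TPM.

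The auricle averaged 28.3 ± 30.9 TPM (SD, n = 3) against 0.183 ± 0.317 TPM (n = 3) in the ventricle. The log2 difference was 4.03 ± 0.77 (SE, 95% confidence interval 2.38 to 5.67), with an adjusted p of 0.00450 in limma. The spread behind this SE was shared with other non-neural tissues, among them the retina and the anterior salivary gland with Betsin at 0 throughout. The SD of log2(TPM + 1) was 1.73 in the auricle and 0.36 in the ventricle. In this comparison 5.51% of 12610 genes passed, 4.66% with higher levels in the auricle, and 2.50% of genes had a larger difference in that direction. Betsin passed the filter on low values, 1 TPM in at least 2 libraries, through the 3 auricle libraries, chromatophores 1 and no ventricle library. The exact permutation test was not made for this comparison, where 0.1 would be the smallest two-sided p that 3 against 3 libraries allow. The call rests on limma alone.

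Summed over libraries the auricle had 238 Betsin reads of 9389209, or 25.3 per 1000000 reads (95% exact Poisson interval 22.2 to 28.8). Auricle 2 held 216 of them, and without it the sum was 22 of 2659890, or 8.27 per 1000000 reads (5.18 to 12.5). The ventricle had 1 of 6288051, or 0.159 per 1000000 reads (0.00403 to 0.886). The ventricle limits of 3.50, 1.65 and 3.86 TPM lay below all auricle values. Leaving out each library in turn gave differences between 3.142 and 4.87, all passing. All 6 libraries have 4-digit names. A fit on that naming style alone left out libraries of other non-neural tissues, all with Betsin at 0. It gave the same difference with an SE of 1.01 and an adjusted p of 0.0623 in limma.

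The neural genes did not follow Betsin over these libraries. LOC106868274 was at 11.7, 12.3 and 133 TPM in the auricle libraries and at 9.07, 11.1 and 22.0 TPM in the ventricle. LOC106876803 was at 1.65, 7.20 and 12.8 TPM against 2.68, 14.03 and 7.58 TPM. Their sum ran from 13.4 to 145 TPM in the auricle and from 11.7 to 29.6 TPM in the ventricle, and the highest sum was in auricle 3, the auricle library with the least Betsin. In the optic lobe LOC106868274 was at 3335 to 10842 TPM in libraries with Betsin at 0, and at 377 to 910 TPM in those above 0. LOC106876803 overlapped there, at 28.5, 595 and 348 TPM with Betsin at 0 against 791, 401 and 192 TPM with Betsin above 0. The share of nervous tissue in the heart libraries was not tested. Auricle 2, with the most Betsin, also had 105 TPM of the named entry Sp38 against at most 5.22 TPM in the other 5 branchial heart libraries, and the part of Sp38 in the difference was not tested.

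Against the central lobes the branchial heart as a whole gave no clear difference. Its 6 libraries averaged 14.3 ± 24.9 TPM, and the log2 difference was 0.43 ± 0.92 (SE, 95% confidence interval -1.42 to 2.27) with an adjusted p of 0.792 in limma, where 23.6% of 14129 genes passed.

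The rest of the circulation held almost none. The clear vessel of the systemic heart had 0.714 TPM from 2 reads. The systemic heart, its intake and output vessels and the aorta were at 0, with limits of 6.25, 2.02, 37.9 and 2.42 TPM. Taken as 7 heart and vessel tissues against 18 other non-neural tissues, the log2 difference was 0.56 ± 0.37 (SE, 95% confidence interval -0.19 to 1.32) with an adjusted p of 0.839 in limma, where 0.323% of 12710 genes passed. Among heart and vessel tissues a mean over 0.714 TPM was thus found in the auricle alone.

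Outside the circulation Betsin was close to its limits. Of 23 other non-neural libraries 4 were above 0, at 2.56 TPM in the hectocotylus, 2.47 TPM in chromatophores 1, 0.308 TPM in the white body, a blood-forming organ, and 0.251 TPM in posterior salivary gland 1. The last pair rested on 1 read each. In the deepest plate library, the female gonad with ova at 14327020 reads, Betsin was at 0 with a limit of 0.419 TPM, and in the skin, at 8351174 reads, at 0 with a limit of 0.654 TPM.

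The second table was scaled on its own, so no test is made between its libraries and the plate, and ranks within a library are given. Betsin was above 0 in 6 of its 10 libraries. Its highest level was in the single neuron of the stellate ganglion, at 451 TPM from 90 of 282185 reads and in the top 1.45% of genes. The whole stellate ganglion followed with 287 TPM from 3162 of 14669189 reads, in the top 2.74%.

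The brachial ganglion, at the base of an arm, had 76.4 TPM from 498 reads and stood in the top 7.96%. The 2 whole vertical lobes had 82.4 and 100.2 TPM, from 531 and 392 reads, in the top 7.06% and 4.90%. The medial superior frontal lobe, which feeds the vertical lobe, had 1.88 TPM from 16 of 13602182 reads, in the top 48.6%.

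**Figure D4:**
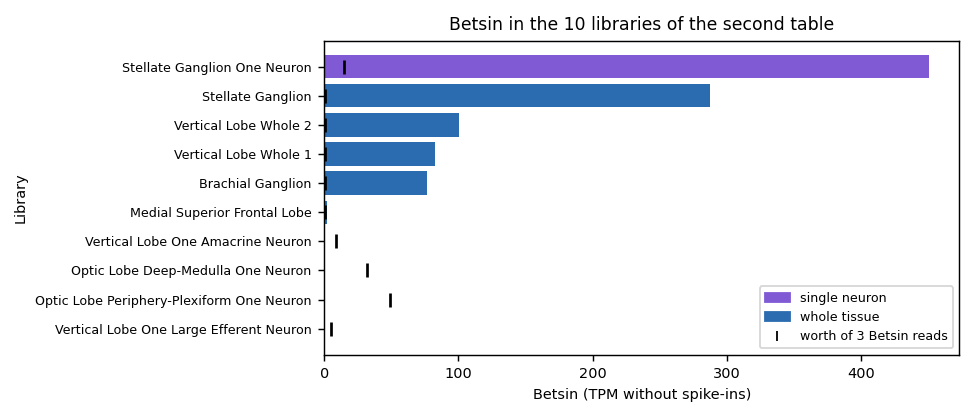
Betsin in the 10 libraries of the second table, in TPM without spike-ins. Bars show the level (purple for single neurons, blue for whole tissue) and ticks the worth of 3 Betsin reads, and the single stellate neuron at 451 TPM is the highest while the other 4 neurons are at 0.

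The other 4 single neurons had Betsin at 0. Their limits were 4.69 TPM for the large efferent and 8.98 TPM for the amacrine neuron of the vertical lobe, and 32.2 and 49.3 TPM for the neurons of the optic medulla and periphery. Each is 1 cell source with 1 library, so nothing is known here of how such neurons vary.

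Values of the 2 tables are given side by side for the vertical lobe and the stellate ganglion, with no test between them. The second table gave 923 Betsin reads of 15741389, or 58.6 per 1000000 reads (95% exact Poisson interval 54.9 to 62.5), for the whole lobe. The plate gave 0.518 per 1000000 reads over the sampled regions, and its highest-ranked vertical lobe library had Betsin in the top 43.5%. The tables sample the lobe differently and were prepared and scaled apart, so tissue, animal and preparation cannot be told apart. In the stellate ganglion the plate gave 12 Betsin reads of 7146453, or 1.68 per 1000000 reads (95% exact Poisson interval 0.868 to 2.93), and the other 215.6 (208.1 to 223.2). Without the library labelled stellate ganglion 1, which was at 0 and held 6547629 of those 7146453 reads, the plate gave 20.04 (10.35 to 35.005). Betsin was in the top 13.5% and 9.53% of genes in the 2 plate libraries above 0, from 5 and 7 reads.

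Among the other 17 named plate entries 9 were at 0 in all 85 libraries and 8 could be compared. Betsin itself was above 0 in 41.2% of all plate libraries. Sp38 was above 0 in 32 of the 35 libraries with Betsin (91.4% of those, 49.2% of its own 65), Insulin1 in 31 (88.6% of those, 47.0% of its own 66), Sp12 in 30 (85.7% of those, 47.6% of its own 63) and VLPep3 in 28 (80.0% of those, 59.6% of its own 47). GNRH, the gonadotropin-releasing hormone type peptide, was above 0 in 24 (68.6% both of those and of its own 35), and IRELamide2, APGW and IRELamide1 in 21, 11 and 9. None of those tested passed in limma in the auricle against ventricle comparison, where 7 were tested, nor in the others except that of the branchial heart with the central lobes. There 3 of the 8 passed, all lower in the heart, with log2 differences of -2.62 for GNRH (adjusted p 0.00247), -4.19 for VLPep3 (0.0112) and -3.80 for Sp12 (0.000235) in limma. Over all genes 23.6% passed there, and 9.73% with lower levels in the heart.

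The 8 genes with the tissue pattern most like that of Betsin were found by Pearson correlation of log2(TPM + 1) over the 46 plate tissue means, among 14797 genes with a median r of 0.11. LOC106884049 (r = 0.86) and LOC106882770 (r = 0.85) came first, and LOC106880511, LOC106875779, LOC106872655, LOC106873659, LOC106882638 and LOC106882180 followed with r between 0.77 and 0.78. The ninth gene had an r of 0.77, so the list has no sharp end. Of the 8 genes 7 are protein-coding in the RefSeq table of the species and LOC106882180 was not matched. Over the 85 plate libraries the r of each of the 8 was lower, between 0.44 and 0.69, with 0.54 for LOC106884049. The top tissue mean was 6.19 TPM for LOC106884049 and 3.65 TPM for LOC106873659. The points share libraries and depth, so these values are a description.

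For 5 of the 8 the anterior subesophageal lobe was the top tissue. LOC106872655 reached 131 TPM there and LOC106875779 71.9 TPM. LOC106880511 had its top mean in the dorsal basal lobe at 124 TPM and was the 1 gene of the 8 with over 1 TPM in the auricle, at 17.2 TPM against 4.68 TPM in the ventricle. In the second table the correlation with Betsin over 10 libraries ran from -0.70 for LOC106873659 to 0.88 for LOC106882180. Their likeness in the plate thus did not carry over to the second table for all of them.

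**Figure D5:**
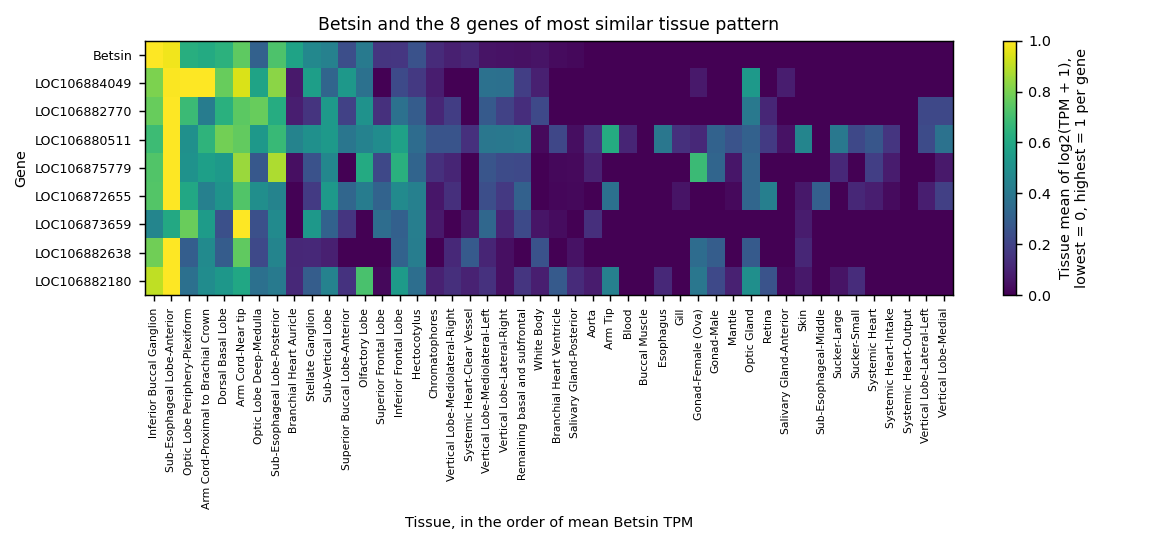
Tissue means of log2(TPM + 1) for Betsin and the 8 genes of most similar pattern, each gene scaled from its lowest (0) to its highest (1) tissue mean, over 46 plate tissues in the order of mean Betsin TPM. Bright cells cluster on the left, in neural tissues, which the choice of the genes and the order of the tissues largely fixed. LOC106880511 is the 1 gene of the 8 that also stands above 1 TPM in the branchial heart auricle.

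Of the 8 named sequences that could be compared, VLPep3 had the pattern closest to Betsin with r = 0.75, which placed it 16th, and GNRH, Sp38 and Sp12 had r of 0.66, 0.63 and 0.50. Insulin1, APGW, IRELamide2 and IRELamide1 had r between 0.02 and 0.34.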

How the data were processed

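The authors deposited TPM values, and the submitters' processing notes name Trimmomatic 0.32, STAR 2.3, featureCounts and edgeR 3.14.0. What each did, and the genome build, is not given in the sources used here. After 92 ERCC spike-in entries had been dropped, each library was rescaled to 1000000 and 1 transcript was kept per gene. Reads were recovered from the steps of the TPM values for 15921 of 17545 plate genes and 15027 of 17544 in the second table. Of their values under 100 reads, 100% of 620027 and 99.98% of 76607 lay within 0.05 of a whole number. A gene was kept only where most of its values fitted such steps, so these shares were largely fixed by that choice. For Betsin the largest distance from a whole number on the plate was 1.2e-06. Recovery was tested on simulated data. Tests used limma 3.58.1 (R 4.3.3) on log2(TPM + 1) with a variance trend, genes at 1 TPM in at least 3 libraries (2 in the non-neural fit) and Benjamini-Hochberg adjustment over all genes tested. Betsin alone was tested by exact permutation in 4 neural comparisons and in no other. A fold on this scale understates the change of low genes. Betsin, the named entries and the 8 genes of highest r were named by rule. The gene, lists and comparisons were chosen with earlier results of these data known. Replicate numbers were not taken as pairs. Deviations of same-numbered libraries had a median r of -0.02 over 315 pairs, with r from -0.65 to 0.72. This does not show whether some of them share an animal. Of 17527 gene IDs 15476 matched the RefSeq table (ASM119413v2), used for gene types only.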

Additional observations from a re-analysis of the deposited data

Results flagged for a closer look

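Betsin in branchial heart auricle 2, at 63.3 TPM, stood far above the other 5 branchial heart libraries, with a gap to the next library of 0.736 of the whole range against a critical value of 0.625 for 6 samples. The 6 libraries come from 2 chambers. In the second table the single stellate ganglion neuron, at 451 TPM, stood far above the other 4 single neurons, all at 0. With the others at 0 the gap is the whole range whatever the level, so its ratio of 1 against 0.71 for 5 samples carries no information, and these are different kinds of cell. Chance gives such a gap in about 1 in 20 groups of normally distributed values, which TPM with zeros are not, and 4 groups were examined.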

How the results depend on the processing

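Within the 4-digit naming style, which left only libraries at 0 out of this fit, the auricle minus ventricle difference was again 4.03. Its SE was 1.01 and its adjusted p 0.0623 in limma. Under all 19 other settings the auricle minus ventricle difference kept its direction, and it passed in all but that 1. Leaving out single libraries gave 3.142 to 4.87 there, 1.58 to 3.27 for peripheral minus central, 0.50 to 2.79 for optic minus central, -4.62 to -0.97 for medulla minus periphery, -3.31 to 0.64 for stellate ganglion minus arm cord (0.64 without stellate 1, 0.036 without arm cord 1, 0.074 without arm cord 3), -0.018 to 0.85 for branchial heart minus central (-0.018 without auricle 2), -4.59 to -2.30 for retina minus optic lobe (-4.59 without plexiform periphery 1, adjusted p 0.0294 in limma) and 0.44 to 0.69 for heart and vessel tissues (32 of 34 libraries, the hectocotylus and chromatophores 1 giving no value). Within the 4-digit style optic minus central was -0.71, stellate ganglion minus arm cord 0.036 and branchial heart minus central -0.31. The last was -0.24 with voom on recovered reads. Stellate ganglion minus arm cord was 0.64 without the libraries set apart and, with 1 stellate library, -6.73 among libraries of at least 1000000 reads. In that depth class, chosen after seeing the data, optic minus central was 4.94 (adjusted p 0.0345 in limma). The causes of these changes were not tested.

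No pairing by replicate number was seen in the median correlation of same-numbered libraries, which cannot decide for single pairs. A fit with the replicate number as a block gave 2.15 for peripheral minus central (adjusted p 0.263 in limma) and 4.03 for auricle minus ventricle (0.00476), and it changed no call in the 7 comparisons it was fitted for.

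The block and voom were not run on tissue means (heart and vessel tissues). Betsin failed the filter, so no value was had, for heart and vessel tissues at 5 TPM, with median ratio scaling, within the 4-digit style and without the libraries set apart, and no retina library had 1000000 reads. By Spearman correlation 3 of the 8 similar genes were again among the first 8.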
